A study of Mus musculus with 4 samples.

Results

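Serum amyloid A (Saa1, Saa2, Saa3, Saa4), orosomucoid (Orm1, Orm2, Orm3), Lcn2, Serpina3n and Apcs encode plasma proteins that the mouse liver makes in larger amounts during inflammation. These 10 genes were chosen by name, as inducible acute phase proteins, with earlier results of these data known. Every non-control probe whose RefSeq accession maps to one of them was taken, which gave 12 probes of 41174 on the array, and 10 genes of 17305 with a symbol. All 12 probes passed the filter on dim probes. They were well above background in both channels on all 4 arrays, and 0 were saturated.

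RNA came from whole liver of male C57Bl/6 mice with a mutant Wrn protein, the RecQ helicase lost in Werner syndrome, at 3 months of age. Vitamin C livers came from Wrn mutant mice that drank water with 0.4% vitamin C from weaning on, and untreated livers came from Wrn mutant mice without it. Both groups carry the mutant Wrn protein, so the values describe the vitamin against no vitamin in that background, and a wild-type liver is not part of the comparison. The Wrn allele is not given in the sources used here. Each of 4 arrays held 1 vitamin C liver in Cy3 and 1 untreated liver in Cy5, called pairs 1 to 4 below after the replicate numbers in the labels.

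The acute phase response is the change in plasma protein synthesis that follows infection or injury. Interleukin 6, acting through STAT3, and interleukin 1 and tumour necrosis factor, acting through NF-kappaB, reach the hepatocyte and, with C/EBP factors, raise transcription of the positive acute phase genes, while synthesis of albumin, transferrin and retinol binding protein falls. SAA proteins travel on high-density lipoprotein and are the precursors of amyloid A fibrils, and orosomucoid, also called alpha-1-acid glycoprotein, is a lipocalin that binds small lipophilic molecules and drugs.

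The values of these genes varied widely from pair to pair. In pair 2, Saa1, Saa2 and Saa3 were 2.39, 2.76 and 2.99 times as high in the vitamin C liver as in the untreated liver, by the brighter probe where a gene has more than 1. In pairs 3 and 4 the same genes were lower in the vitamin C liver, and in pair 1 they lay within 0.21 of 0 on the log2 scale. Over the 4 pairs 0 of 12 member probes passed limma's test at an adjusted p under 0.05, beside 0 of 39328 probes in all (0.0%), where the smallest adjusted p was 0.139. At an unadjusted p under 0.05 the members again numbered 0 of 12, against 27.2% of all probes tested.

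Some facts of the arrays bear on every value. The dyes ran the same way on all 4 arrays (0 were swapped), so vitamin and dye cannot be told apart for any single probe. Directions rest on the dye labels, and the authors' deposited log2 table runs the other way, as Cy5 over Cy3. A reversal of the dye labels would turn each direction given here. Pair 2 stood apart: across 39328 probes its ratios correlated with those of pairs 1, 3 and 4 at r = 0.050, -0.11 and -0.14, while the other pairs correlated with each other at 0.57 to 0.78. These correlations run over probes, which do not serve as independent replicates. Median spot intensity was 379.5 to 530 in the Cy3 channel of the vitamin C livers and 813 to 962 in the Cy5 channel of the untreated livers. Negative control spots read 62 to 67 in Cy3 and 66 to 80 in Cy5. The number of arrays limits the precision, and an exact sign-flip permutation of 4 values cannot reach a two-sided p under 0.05.

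The labelled tissue matched its markers. Of 8 hepatocyte markers 7 were tested, and all 7 were well above background in both channels on every array. Their summed linear intensity was 752000 to 938000 in vitamin C livers and 1040000 to 1100000 in untreated livers. Of the 7, 5 averaged below 0 and 2 above. Alb averaged -0.70, at an intensity where the running median of all probes' mean log2 ratios was -0.22. Ass1 (-0.36) and Cyp2e1 (-0.18) lie where it was -0.19, and Tat (-0.41) and Apoa1 (-0.26) where it was -0.17. Ttr and Hnf4a, at running medians of 0.025 and 0.014, averaged 0.11 and 0.077. In whole tissue, fewer cells of a type and less RNA per cell cannot be told apart. Nor can either be told apart here from the dye or from the shift of bright probes.

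The serum amyloid A genes lie together on mouse chromosome 7. Saa1 and Saa2 encode the main circulating forms made by the inflamed liver, Saa3 is also made by macrophages and fat cells, and Saa4 is the form made at rest. Their 250 bases before the gene start are shown because Saa1, Saa2 and Saa3 had like ratios across the pairs, with Saa4 as the fourth gene of the cluster. They also show how alike Saa1 and Saa2 are before the start. The windows are RefSeq's on GRCm38.p6, each read 5′ to 3′ on the gene's strand and ending at the base before the start. They lie at chr7:46742981-46743230 (minus strand) for Saa1, chr7:46751583-46751832 (plus) for Saa2, chr7:46715677-46715926 (minus) for Saa3 and chr7:46732604-46732853 (minus) for Saa4. Capitals mark matches to the C/EBP motif TTNNGCAA on either strand.
Saa1: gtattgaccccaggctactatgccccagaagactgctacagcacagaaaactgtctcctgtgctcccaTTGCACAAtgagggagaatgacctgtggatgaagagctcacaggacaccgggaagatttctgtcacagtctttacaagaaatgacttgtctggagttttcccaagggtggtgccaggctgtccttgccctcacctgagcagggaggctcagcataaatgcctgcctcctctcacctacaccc
Saa2: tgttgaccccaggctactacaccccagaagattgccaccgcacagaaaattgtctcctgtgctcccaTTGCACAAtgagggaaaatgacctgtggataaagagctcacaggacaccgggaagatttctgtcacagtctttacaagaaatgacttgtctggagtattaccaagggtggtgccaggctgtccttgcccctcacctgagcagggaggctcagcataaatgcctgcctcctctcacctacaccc
Saa3: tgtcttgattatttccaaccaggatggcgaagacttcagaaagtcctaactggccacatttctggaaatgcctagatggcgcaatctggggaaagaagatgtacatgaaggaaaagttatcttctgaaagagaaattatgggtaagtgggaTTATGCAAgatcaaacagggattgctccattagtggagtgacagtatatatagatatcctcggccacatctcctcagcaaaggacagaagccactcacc
Saa4: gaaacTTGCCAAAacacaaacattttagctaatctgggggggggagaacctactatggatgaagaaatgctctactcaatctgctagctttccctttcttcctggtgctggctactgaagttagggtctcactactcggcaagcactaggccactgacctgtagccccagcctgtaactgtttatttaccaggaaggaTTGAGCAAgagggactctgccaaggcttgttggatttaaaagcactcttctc

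The Saa1 and Saa2 windows were identical at 238 of 251 aligned columns (94.8%) and hold the same 8-base C/EBP match, TTGCACAA, at 182 to 175 bases before the start in Saa1 and 183 to 176 in Saa2. Saa3 holds TTATGCAA at 99 to 92, and Saa4 holds TTGCCAAA at 245 to 238 and TTGAGCAA at 52 to 45. The Saa3 and Saa4 windows were 46.8% to 52.4% identical to those of Saa1 and Saa2. That is no more than between members of different families, from 45.7% (Saa4 and Lcn2) to 54.9% (Saa1 and Orm3). A probe for one gene may also bind RNA of the other, which these windows cannot show, as they lie before the transcript. Probe sequences were not used here, so that sharing was not tested. The 2 symbols have been exchanged in nomenclature, and each probe is named here by its accession.

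Saa1 was measured by 2 probes. By the brighter, A_52_P318673, its normalized log2 intensity was 14.13, 15.15, 14.54 and 14.93 in vitamin C livers 1 to 4, against 14.35, 13.90, 14.90 and 15.48 in untreated livers 1 to 4. The highest liver was untreated and so was the lowest, and the groups overlapped. The log2 ratio of vitamin C over untreated was -0.21, 1.26, -0.36 and -0.55 in pairs 1 to 4, a mean of 0.035 ± 0.83 (SD, n = 4; 95% interval -0.70 to 0.77; limma adjusted p = 0.95). Pair 2 was the only pair above 0 for this probe.

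The dimmer Saa1 probe, A_51_P361650, gave log2 ratios of -0.037, 1.77, -0.21 and -0.56 with a mean of 0.24 ± 1.04 (SD, n = 4; limma adjusted p = 0.692). The order of the 8 livers was the same by both probes. They differed in pair 2, where the brighter minus the dimmer was -0.52 on the log2 scale, and by 0.0097 to -0.18 in the other pairs.

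Saa2 read 14.53, 15.49, 14.96 and 15.38 in vitamin C livers, against 14.70, 14.03, 15.10 and 15.82 in untreated livers (log2 intensity, livers 1 to 4). Its livers fell in the same order as those of Saa1, with untreated liver 2 lowest and untreated liver 4 highest. The log2 ratio was -0.16, 1.46, -0.14 and -0.44, a mean of 0.18 ± 0.86 (SD, n = 4; 95% interval -0.59 to 0.95; limma adjusted p = 0.724).

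Saa3 was several log2 units dimmer, a difference between probes that says nothing of the genes' relative levels. It read 11.66, 12.77, 12.21 and 12.54 in vitamin C livers and 11.66, 11.19, 12.34 and 12.98 in untreated livers. Its log2 ratio was 0.0054, 1.58, -0.13 and -0.45, a mean of 0.25 ± 0.90 (SD, n = 4; 95% interval -0.55 to 1.06; limma adjusted p = 0.633). The order of its livers differed from that of Saa2 only in that untreated liver 1 and vitamin C liver 1 changed places.

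The spread of these genes lay in both members of the pairs and was wider among untreated mice. Between the lowest and highest liver, Saa2 spanned 1.94-fold among vitamin C livers and 3.47-fold among untreated livers, and Saa3 spanned 2.15-fold and 3.46-fold in the same groups. Saa1 spanned 2.03-fold and 2.99-fold by its brighter probe. The high ratio in pair 2 thus combined a high vitamin C liver, second only to untreated liver 4, with the lowest untreated liver. Whether the spread differs between the groups was not tested.

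Saa4 was above 0 in pair 2 only, and its pattern over the pairs was nearer to that of Orm2 than to those of Saa2 and Saa3. Over the 4 log2 ratios, its brighter probe lay at a Euclidean distance of 0.396 from Orm2, 1.06 from Saa2 and 1.19 from Saa3. By its brighter probe, A_51_P142529, it read 13.94, 14.55, 14.15 and 13.92 in vitamin C livers and 14.25, 13.98, 14.64 and 14.78 in untreated livers. Untreated livers 3 and 4 were the highest, and the groups overlapped. The log2 ratio was -0.30, 0.57, -0.49 and -0.86, with a mean of -0.27 ± 0.61 (SD, n = 4; 95% interval -0.82 to 0.28; limma adjusted p = 0.445). The other probe, A_52_P404329, gave -0.29, 0.36, -0.49 and -0.90 and a mean of -0.33 ± 0.52 (limma adjusted p = 0.301), so both probes of this gene agreed within 0.21 in each pair.

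**Figure D1:**
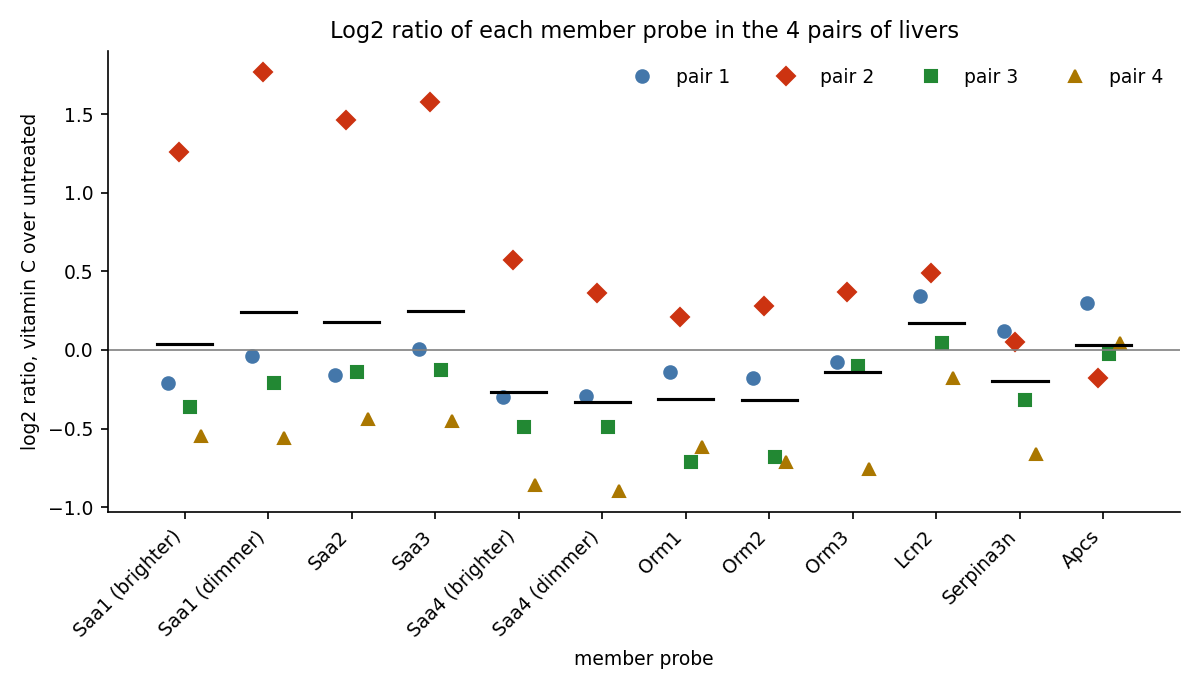
Log2 ratio of vitamin C over untreated (vertical axis) for the 12 member probes (horizontal axis), with 1 point per pair of livers and a bar at each mean. The point of pair 2 lies above the other 3 for every Saa and Orm probe, and for Saa2 it stands at 1.46, against -0.44 to -0.14 in the other pairs.

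The orosomucoid genes lie together on chromosome 4. Windows of 250 bases before the gene start are shown to set the copies of this cluster side by side, for Orm2 at chr4:63362199-63362448 (plus strand) and Orm3 at chr4:63355908-63356157 (plus), RefSeq on GRCm38.p6, with capitals again marking TTNNGCAA.
Orm2: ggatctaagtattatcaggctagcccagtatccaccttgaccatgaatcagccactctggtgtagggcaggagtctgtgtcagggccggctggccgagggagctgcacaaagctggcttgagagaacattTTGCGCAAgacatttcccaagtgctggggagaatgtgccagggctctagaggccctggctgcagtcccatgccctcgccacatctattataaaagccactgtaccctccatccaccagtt
Orm3: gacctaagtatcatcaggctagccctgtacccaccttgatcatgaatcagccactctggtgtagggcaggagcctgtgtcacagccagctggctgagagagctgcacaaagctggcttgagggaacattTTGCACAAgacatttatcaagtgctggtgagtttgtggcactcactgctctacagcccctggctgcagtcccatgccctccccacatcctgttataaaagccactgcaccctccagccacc

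These 2 windows were identical at 219 of 255 aligned columns (85.9%). The Orm2 match, TTGCGCAA, lies at 120 to 113 bases before the start and the Orm3 match, TTGCACAA, at 121 to 114. Of the 9 members with a window in the RefSeq table, 7 hold at least 1 match to TTNNGCAA on either strand, against 9.56% of 32851 promoter windows of the same length. The STAT3 motif TTCNNNGAA was found in 1 of 9 members (Apcs), against 7.02% of all windows. Only 1 fixed form of each motif was searched, on both strands. The NF-kappaB form, a narrow one, was found in 1 of 9 (Serpina3n), against 1.41%. Looser forms of the STAT3 and NF-kappaB sites were not searched, so the counts do not show that the other windows lack one. The 3 motifs do not share a match in these windows. Members that are copies of each other share their matches, so the count of 7 is not one of independent genes, and a match is a run of letters and not a shown binding site.

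Orm1 read 14.67, 14.97, 14.26 and 14.38 in vitamin C livers, against 14.80, 14.76, 14.97 and 15.00 in untreated livers. Vitamin C livers 1, 3 and 4 lay below every untreated liver, and vitamin C liver 2 lay among them. The log2 ratio was -0.14, 0.21, -0.71 and -0.62, with a mean of -0.31 ± 0.43 (SD, n = 4; 95% interval -0.71 to 0.081; limma adjusted p = 0.249), the smallest adjusted p among the members. The unadjusted p was 0.0993.

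Orm2 had nearly the same pattern. It read 14.38, 14.76, 14.09 and 14.19 in vitamin C livers and 14.55, 14.48, 14.77 and 14.90 in untreated livers. Its log2 ratio was -0.18, 0.28, -0.68 and -0.71, a mean of -0.32 ± 0.47 (SD, n = 4; 95% interval -0.75 to 0.11; limma adjusted p = 0.273). Orm1 and Orm2 were the closest of all pairs of member probes, at a Euclidean distance of 0.13 over the 4 log2 ratios. These genes are copies of the same cluster, and shared binding to their probes was not tested either. For Orm1 and Orm2 the wider spread lay on the other side from that of the Saa genes. Orm1 spanned 1.63-fold among vitamin C livers and 1.18-fold among untreated livers, and Orm2 1.59-fold and 1.34-fold. Orm3 went the way of the Saa genes, at 1.33-fold and 1.64-fold.

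Orm3 was dim, at 9.39, 9.55, 9.49 and 9.14 in vitamin C livers and 9.47, 9.19, 9.59 and 9.90 in untreated livers. Its log2 ratio was -0.079, 0.37, -0.10 and -0.76, with a mean of -0.14 ± 0.46 (SD, n = 4; 95% interval -0.57 to 0.28; limma adjusted p = 0.605). The groups overlapped, and pair 4 alone gave most of the negative mean.

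Lcn2 encodes lipocalin 2, which binds bacterial siderophores and so withholds iron. It read 8.60, 8.72, 8.71 and 8.96 in vitamin C livers and 8.26, 8.23, 8.67 and 9.13 in untreated livers. Its log2 ratio was 0.34, 0.49, 0.041 and -0.18, a mean of 0.17 ± 0.30 (SD, n = 4; 95% interval -0.11 to 0.46; limma adjusted p = 0.35). Like Saa1 to Saa3 it was lowest in untreated liver 2 and highest in untreated liver 4.

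Serpina3n encodes an inhibitor of serine proteases and read 13.04, 12.91, 12.68 and 12.44 in vitamin C livers, against 12.92, 12.86, 13.00 and 13.10 in untreated livers. The log2 ratio was 0.12, 0.053, -0.32 and -0.66, a mean of -0.20 ± 0.36 (SD, n = 4; 95% interval -0.54 to 0.13; limma adjusted p = 0.359). Pair 2 did not stand apart for this gene.

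Apcs encodes serum amyloid P component, the pentraxin that serves as a major acute phase protein in mice. It read 11.48, 11.40, 11.12 and 11.39 in vitamin C livers and 11.18, 11.58, 11.14 and 11.35 in untreated livers. Its log2 ratio was 0.30, -0.18, -0.025 and 0.041, a mean of 0.034 ± 0.20 (SD, n = 4; 95% interval -0.17 to 0.24; limma adjusted p = 0.805). It was the member that varied least, over a 1.38-fold range across the 8 livers, and the only one whose pair 2 ratio was below 0.

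**Figure D2:**
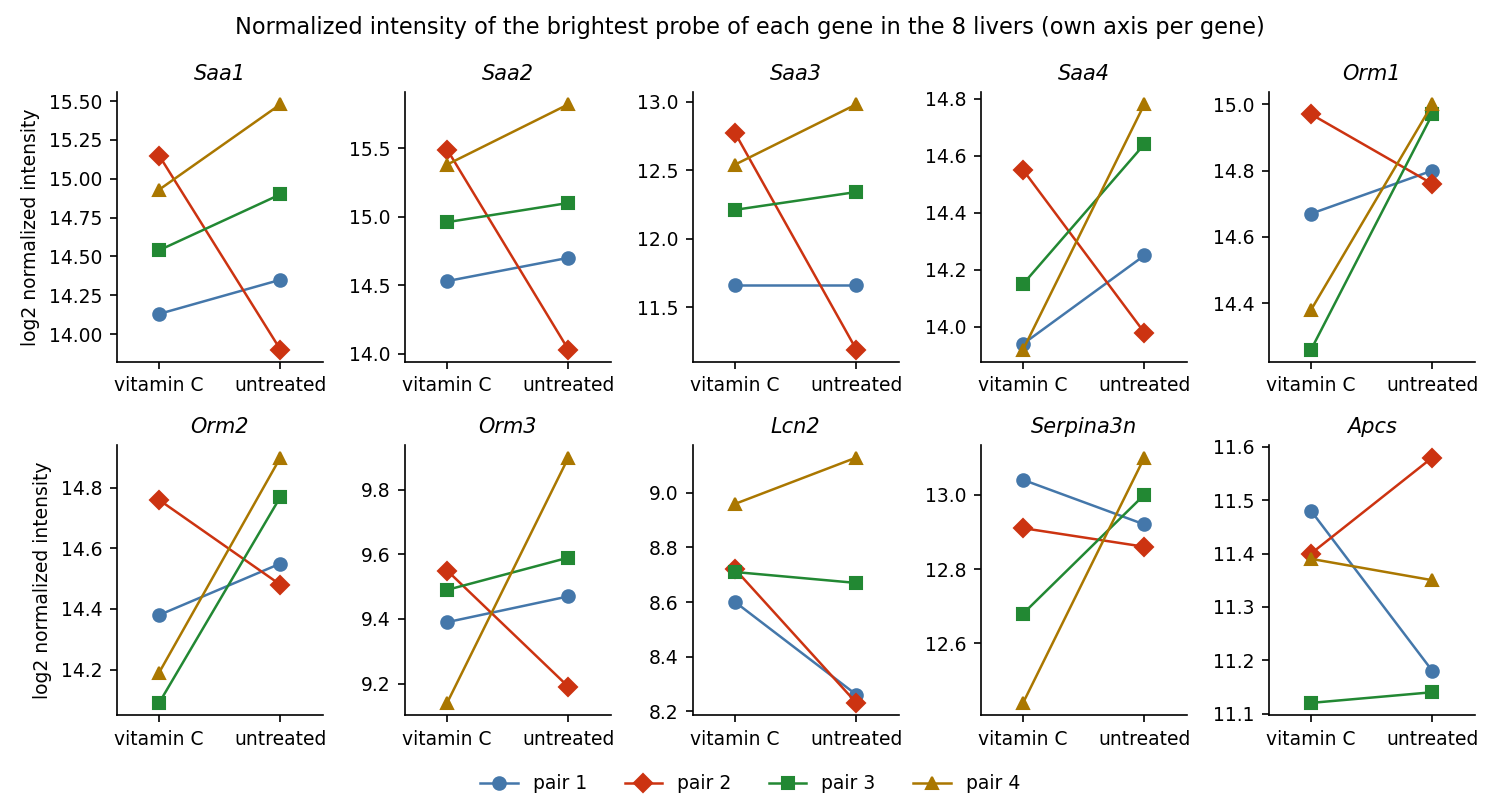
Normalized log2 intensity (vertical axes) of each member gene, by its brighter probe, in the 4 vitamin C livers (left in each panel) and the 4 untreated livers (right), with lines joining the livers of a pair. The groups overlap in every panel, and untreated liver 2 is the lowest of 8 for Saa1, Saa2, Saa3 and Lcn2.

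By gene, 4, 9, 1 and 1 of the 10 members were above 0 in pairs 1 to 4, with median log2 ratios of -0.11, 0.43, -0.23 and -0.58. The medians of all probes lay between -0.0075 and -0.0049 in every pair. Averaged over the pairs, 5 members were above 0 and 5 below, with a median of -0.054, while 52.4% of all probes tested had a mean below 0. None of the 12 member probes kept 1 sign over the 4 arrays, against 31.0% of all probes. A ratio above 0 in pair 2 and in no other pair was found for 8 of 12 member probes, those of Saa1, Saa2, Saa4, Orm1, Orm2 and Orm3, against 17.1% of all probes. Saa1 and Saa4 count there with both of their probes, and the members were chosen with earlier results known. The vitamin C and untreated livers overlapped for all 12, where 7.12% of all probes had groups that did not.

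The size of the pair 2 ratios set the Saa genes near the top of that array. Among 39328 probes, ranked from the highest ratio in pair 2, the dimmer Saa1 probe was 6, Saa3 was 9, Saa2 was 11 and the brighter Saa1 probe was 14, so 4 of the top 15 probes were members. The brighter Saa4 probe ranked 82, Lcn2 124 and Orm3 381. The pair 2 array had narrow ratios, with a 99th percentile of 0.36, against 0.50, 0.65 and 0.73 on arrays 1, 3 and 4.

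The spread between pairs was wide for probes of this brightness. The SD of the dimmer Saa1 probe over the 4 ratios, 1.04, ranked 58 from the highest of 39328, and those of Saa3, Saa2 and the brighter Saa1 probe ranked 96, 108 and 126. The median SD was 0.13 over all probes and 0.14 over the 827 probes with a mean log2 intensity of 14 to 15, a range that includes Saa1, Orm1 and Orm2.

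**Figure D3:**
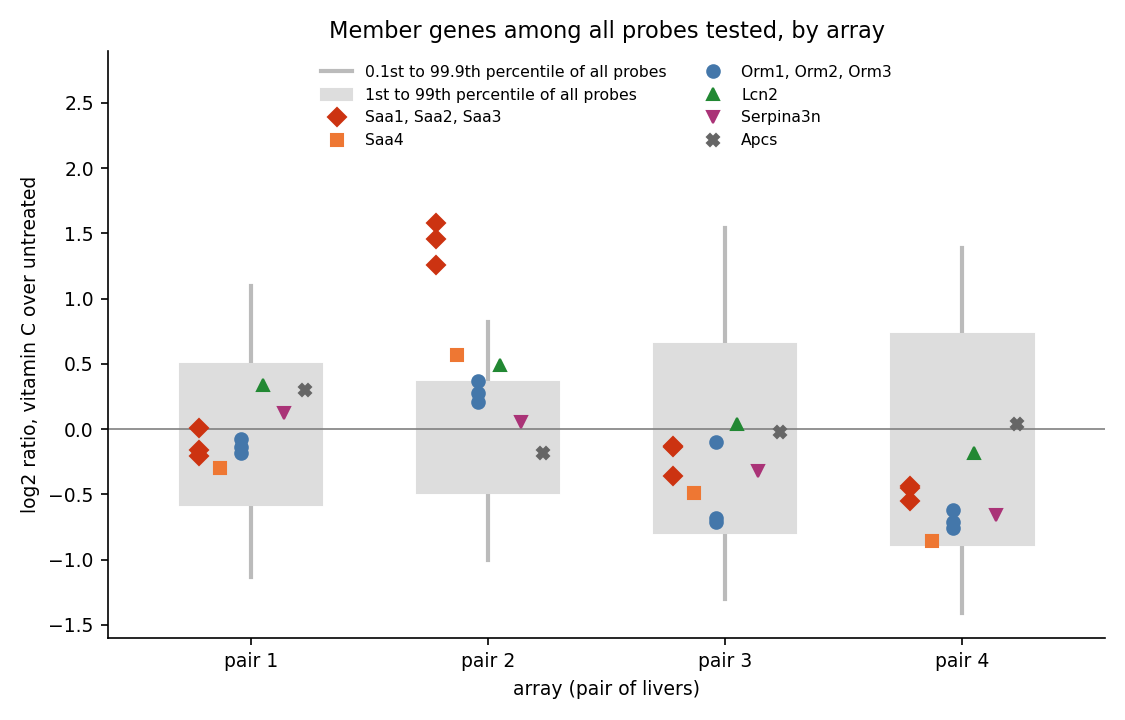
Log2 ratio of vitamin C over untreated (vertical axis) of each member gene on the 4 arrays (horizontal axis), over grey boxes from the 1st to the 99th percentile and grey lines over a wider percentile range of all probes tested. Saa1, Saa2 and Saa3 lie above the end of the grey line at 0.82 in pair 2 and inside the boxes in pairs 1, 3 and 4.

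Since pair 2 stood apart from the other arrays, each member was also fitted without pair 2, which leaves 3 arrays. Pair 2 gave the highest ratio of every Saa and Orm probe, so leaving it out lowers their means by construction. Without it, 10 of 12 member probes had a mean below 0. The share of all probes was not computed for this count, so it cannot be read as a result about the members. In that fit 5 of 12 passed limma's test as lower in vitamin C livers, against 15.5% of all probes as lower and 9.18% as higher. Without pair 2, 9689 probes passed in all (24.6%), and 0 passed without pair 1, 3 or 4. The members called there were Saa4, Orm1, Orm2 and the brighter probe of Saa1. With array weights, which were lowest for the pair 2 array, 3 of 12 member probes passed as lower (the dimmer Saa4 probe, Orm1 and Orm2), against 18.1% of all probes as lower.

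Without pair 2, Orm1 averaged -0.49 (fold 0.712, limma adjusted p = 0.0427) and Orm2 -0.52 (fold 0.697, limma adjusted p = 0.0348). Over the 16 alternative settings their adjusted p ran from 0.0422 to 0.614 and from 0.0348 to 0.633. Saa4 averaged -0.55 and -0.56 by its 2 probes (limma adjusted p = 0.0272 and 0.0319), with ranges of 0.0272 to 0.871 and 0.0319 to 0.679 over the alternatives.

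The Saa1 probes fell on opposite sides of the threshold without pair 2, at -0.37 (limma adjusted p = 0.0268, range 0.0268 to 0.978) and -0.27 (limma adjusted p = 0.124, range 0.124 to 0.83). Saa2 at -0.25 (limma adjusted p = 0.069) and Saa3 at -0.19 (limma adjusted p = 0.194) did not pass. Lcn2, Serpina3n, Apcs and Orm3 did not pass either, with means of 0.07, -0.29, 0.10 and -0.31. The direction of Saa1, Saa2 and Saa3 over all pairs therefore turned with that pair. Saa4, Orm1, Orm2, Orm3 and Serpina3n were below 0 with it and without it. Their pair 2 ratios lay above their means, so means below 0 had to stay below 0 without that pair.

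**Figure D4:**
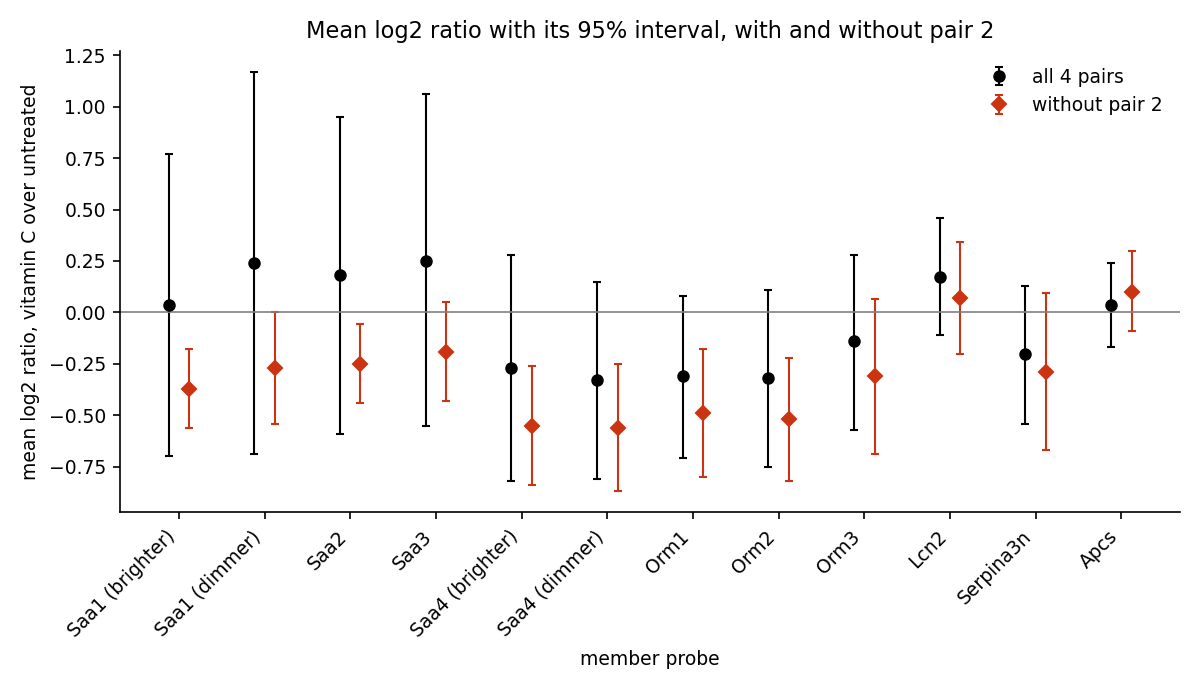
Mean log2 ratio of vitamin C over untreated (vertical axis) with its 95% interval from limma for each member probe (horizontal axis), over all 4 pairs and without pair 2. The interval of Saa2 runs from -0.59 to 0.95 over 4 pairs, and its mean lies at 0.18 with pair 2 and at -0.25 without it.

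The genes whose ratios were most like those of Saa3, the member gene with the widest spread among the brighter probes, were sought among 17082 genes by Euclidean distance over the 4 log2 ratios. The nearest were Saa2 (0.205), Saa1 (0.461), Myc (0.718), Socs3 (0.743) and Foxq1 (0.78). Myc encodes a growth-promoting transcription factor, and Socs3 encodes the feedback inhibitor of interleukin 6 signalling through STAT3. The other members ranked 25 (Lcn2), 26 (Saa4), 45 (Orm3), 647 (Orm2), 1524 (Orm1), 2908 (Serpina3n) and 13768 (Apcs) in this order.

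Socs3 read 12.16, 12.73, 11.35 and 11.38 in vitamin C livers and 11.97, 11.32, 12.07 and 12.21 in untreated livers. Its log2 ratio was 0.19, 1.42, -0.72 and -0.83, with a mean of 0.014 ± 1.04 (SD, n = 4; limma adjusted p = 0.984). Untreated liver 2 was the lowest of its group, as for the Saa genes, and vitamin C liver 2 was the highest of all 8. Socs3 was among the genes nearest to Saa3 by these same ratios, so this likeness is not separate support.

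**Figure D5:**
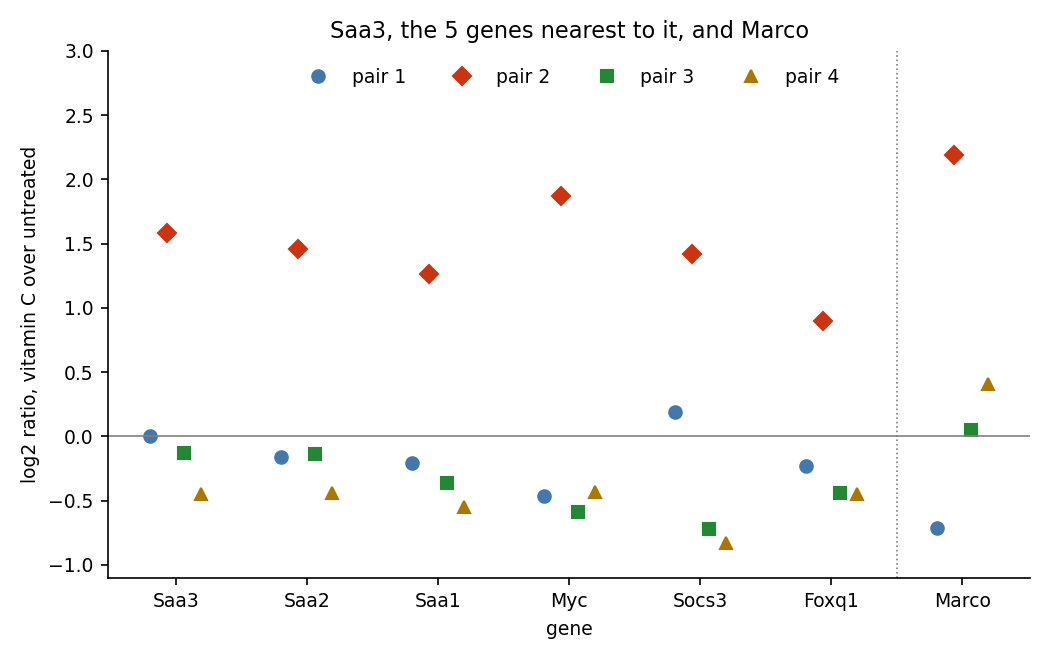
Log2 ratio of vitamin C over untreated (vertical axis) in the 4 pairs for Saa3, for the 5 genes nearest to it and, right of the dotted line, for the macrophage receptor Marco (horizontal axis). Pair 2 is the highest point of each gene, from 0.90 for Foxq1 to 2.19 for Marco. The 5 genes were picked for ratios like those of Saa3, and Marco for its pair 2 ratio. The high point in pair 2 thus follows from the choice of genes.

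Of 9 listed markers of Kupffer cells and other macrophages 8 were tested, 0 passed after adjustment, and all 8 were well above background in both channels on every array, so none was at 0. In pairs 1 to 4, 0, 8, 6 and 7 of these 8 markers had a ratio above 0, with median log2 ratios of -0.30, 0.28, 0.048 and 0.40. Their summed linear intensity was 52700 to 91700 in vitamin C livers and 53300 to 76000 in untreated livers, and in pair 2 it was 83900 in the vitamin C liver and 53300 in the untreated liver.

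Marco, a macrophage scavenger receptor on that list, was named after its values were seen, as the probe with the highest ratio on the pair 2 array. It read 11.77, 14.21, 12.38 and 13.17 in vitamin C livers and 12.48, 12.02, 12.32 and 12.77 in untreated livers, with log2 ratios of -0.71, 2.19, 0.053 and 0.41 (limma adjusted p = 0.493). Neutrophil markers, of which 8 of 10 listed were tested, had medians of -0.031, 0.031, 0.0079 and 0.039, and their summed intensity was 2690 to 3260 in vitamin C livers and 2560 to 2990 in untreated livers. The part of these cells in the Saa values was not tested.

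Among the inducers and signalling genes of the acute phase, 28 of 30 listed were tested and 0 passed after adjustment. At an unadjusted p under 0.05, 5 were higher and 5 lower, against 11.7% higher and 15.5% lower over all probes, and the median of the list was 0.056. The 3 with the smallest p were Il1a, Nfkbia and Il1rn. Il1a, which encodes interleukin 1 alpha, had log2 ratios of 0.16, 0.20, 0.17 and 0.25 (mean 0.20 ± 0.037, SD, n = 4; limma adjusted p = 0.139). The livers of the groups did not overlap for Il1a.

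Nfkbia, the inhibitor of NF-kappaB, averaged 0.35 ± 0.19 and Il1rn, the interleukin 1 receptor antagonist, 0.22 ± 0.10 (SD, n = 4; limma adjusted p = 0.139 and 0.14). Il6 gave -0.37, 0.16, -0.49 and -0.50, with a mean of -0.30 ± 0.31 (limma adjusted p = 0.181). Its sign by pair was that of Saa1, Saa2, Saa4, Orm1, Orm2 and Orm3, above 0 in pair 2 only. That held for 6 of the 28 genes tested from this list, against 17.1% of all probes, so it does not set Il6 apart. Stat3 gave -0.10, 0.25, -0.17 and -0.062 with a mean of -0.02 ± 0.18 (limma adjusted p = 0.887).

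Of 32 other positive acute phase proteins 29 were tested, with medians of -0.018, -0.0083, -0.22 and -0.24 in pairs 1 to 4. Of these 0 passed after adjustment, and the list median was -0.10. At an unadjusted p under 0.05, 5 were higher and 9 lower, against 11.7% higher and 15.5% lower over all probes. The 9 lower genes all lie at intensities where the running median of all probes' mean ratios was -0.14 to -0.23. The shares over all probes are not matched for intensity, so that count cannot be told apart from this shift. Hp, which encodes the haemoglobin-binding protein haptoglobin, read 17.32, 17.79, 17.27 and 17.13 in vitamin C livers and 18.27, 18.08, 18.28 and 18.40 in untreated livers. The groups did not overlap, and the log2 ratio was -0.95, -0.29, -1.01 and -1.27 (mean -0.88 ± 0.42, SD, n = 4; fold 0.544; limma adjusted p = 0.139).

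Fgb, the fibrinogen beta chain, averaged -0.90 ± 0.41 and Cp, the copper carrier ceruloplasmin, -0.31 ± 0.091 (SD, n = 4; limma adjusted p = 0.139 for both). Crp, which is only weakly inducible in mice, averaged 0.14 ± 0.12 (limma adjusted p = 0.192). For Hp as for the Orm genes, pair 2 was the pair with the ratio nearest to or above 0. Hp and Fgb are among the brightest probes, where the running median of all probes' mean ratios was itself -0.22, and Cp lies where it was -0.14. Their values stand beside that shift.

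Of the negative acute phase proteins, which fall in inflammation, 17 of 18 listed were tested. At an unadjusted p under 0.05, 0 were higher and 8 lower, against 11.7% and 15.5% over all probes, and 0 passed after adjustment. All 8 lie at intensities where the running median of all probes' mean ratios was -0.17 to -0.22. The shares over all probes are not matched for intensity, so the count cannot be told apart from that shift. The list's median was -0.11. Alb, albumin, gave -0.61, -1.01, -0.76 and -0.42 (mean -0.70 ± 0.25, SD, n = 4; limma adjusted p = 0.139), and it was lowest in pair 2. Trf, transferrin, averaged -0.59 ± 0.13 and Rbp4, retinol binding protein, -0.48 ± 0.11 (limma adjusted p = 0.139 for both), all 3 at intensities where the running median was -0.22.

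The positive list's median turned sign with Agilent's processed signals, and the negative list's with the running median taken off. Both kept their sign without loess, at -0.26. With Agilent's processed signals the median was 0.0038 for the positive and -0.078 for the negative proteins. With the running median over intensity taken off each array it was -0.025 for the positive and 0.014 for the negative proteins.

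Serpina3n belongs to a cluster of serine protease inhibitor genes, of which 6 of 10 listed relatives were tested. At an unadjusted p under 0.05, 1 was higher and 4 lower, against 11.7% and 15.5% over all probes, 0 passed after adjustment, and the median was -0.33. Serpina3m gave -0.85, -0.33, -1.26 and -1.12 (mean -0.89 ± 0.41, SD, n = 4; limma adjusted p = 0.139), Serpina3k averaged -0.89 ± 0.58 and Serpina3f 0.40 ± 0.23 (limma adjusted p = 0.139 for both). The first 2 of these are bright probes in the range where the running median was -0.22, and copies in this cluster are alike enough that 1 probe may bind RNA of several.

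All 17 listed receptors and partners of the member proteins were tested. At an unadjusted p under 0.05, 4 were higher and 2 lower, against 11.7% and 15.5% over all probes, 0 passed after adjustment, and the median was 0.047. Cd36, a scavenger receptor that binds SAA, gave 1.05, -0.012, 1.73 and 0.90 (mean 0.92 ± 0.72, SD, n = 4; limma adjusted p = 0.143). Lcat, the plasma enzyme that esterifies cholesterol on high-density lipoprotein, averaged 0.17 ± 0.087 (limma adjusted p = 0.145). Apoa1, the main protein of those particles, averaged -0.26 ± 0.19 (limma adjusted p = 0.146).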

How the data were processed

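Gene expression was measured in 4 vitamin C and 4 untreated livers on 4 Agilent arrays of 2 colours, all on 1 slide with 1 scan date, which left no batch to fit. Spot intensity values, and log10 ratios with Cy5 on top, were deposited by the authors. Per the file headers, they come from Feature Extraction 10.5.1.1. The deposited log2 table of the same arrays, for which the submitters' processing notes name limma, correlated with log2 Cy5 over Cy3 computed here at r = 0.968, 0.950, 0.974 and 0.980 across probes. Its column medians were 0.00374, 0.00497, 0.00225 and 0.00136, so it was centred near 0, and its exact scale stayed unknown.

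Median signals and backgrounds were corrected with normexp (offset 50) and normalized by loess within arrays, with 1639 control spots at weight 0. Outlier spots (98 to 148 per array) were left out and spots of a probe averaged. Levels per liver are channel values after loess and Aquantile. Probes not well above background in either channel on more than 1 array were dropped, which kept 39328 of 41174. Symbols came from unversioned accessions in a RefSeq table (GRCm38.p6), which named 25097 probes (61%). The array headers name another build, so no coordinates of probes are given, and those of promoter windows are the RefSeq table's own. Each probe's 4 ratios were tested against 0 with limma 3.58.1 (R 4.3.3), with Benjamini-Hochberg adjustment over all kept probes and a threshold of 0.05. The code was tested on simulated data. Figures used Python 3.11.15.

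Named were all member probes, the 3 genes of smallest p in each pathway list, Il6, Stat3, Socs3, Hp, Crp, Alb and the 5 genes nearest to the member of widest spread. The pairing comes from the labels, which put both livers of a number on 1 array, and it lies in the array ratio. Members and lists were chosen with earlier results of these data known. Alternatives changed the background correction, normalization, filter, probes per gene, variance model, array weights, pairing, source of values and replicates.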

Additional observations from a re-analysis of the deposited data

Results flagged for a closer look

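The log2 ratio of Saa2 in pair 2 was 1.46, against -0.16, -0.14 and -0.44 in pairs 1, 3 and 4. Its gap to the nearest other pair was 0.843 of the whole range of the 4 values, above Dixon's 95% critical value for 4 samples. It was 1 of 36 groups of 4 values screened (ratios and levels of the 12 member probes), and chance flags about 1 in 20 such groups.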

How the results depend on the processing

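The count of probes past the adjusted threshold was 0 as reported, 11892 with each array centred on its median without loess, 11829 with array weights, 1293 with the replicate block as a random effect, and 0 to 9689 with 1 pair left out (9689 without pair 2). At an unadjusted p under 0.05 the count was 10697 as reported, 18188 without loess, 17654 with array weights, 5625 with no replicate block, and 4025 to 16354 with 1 pair left out. Pair 2 had the lowest array weight, 0.347, against 1.11 to 1.96 for the others. The members' median of -0.054 ranged from -0.30 to 0.048 with 1 pair left out.

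Of 190 values of member probes under the alternatives, 170 kept their direction and their side of the threshold, 13 turned and 8 passed the threshold, 1 of them (the brighter Saa1 probe without pair 2) doing both. Without loess, the brighter Saa1 probe was -0.11 and Apcs -0.13. With the running median over intensity taken off, that Saa1 probe was -0.016. With array weights it was -0.24, the dimmer one -0.10, Saa2 -0.10 and Saa3 -0.042, while the dimmer Saa4 probe (-0.47), Orm1 (-0.46) and Orm2 (-0.47) passed. With 1 pair left out, the brighter Saa1 probe ranged from -0.37 to 0.23, the dimmer from -0.27 to 0.51, Saa2 from -0.25 to 0.39, Saa3 from -0.19 to 0.48, Orm3 from -0.31 to 0.063 and Apcs from -0.053 to 0.10. Leaving out a pair changes the arrays by construction. The cause of the other shifts was not tested.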
